A study of Mus musculus with 6 samples.

Results

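The genes described here are 10 mouse genes of the histone H3 lysine 9 (H3K9) methylation and heterochromatin protein 1 (HP1) machinery, taken by name: the H3K9 methyltransferases *Setdb1*, *Ehmt1*, *Ehmt2*, *Suv39h1* and *Suv39h2*, the cofactors *Trim28* and *Atf7ip*, and the HP1 genes *Cbx1*, *Cbx3* and *Cbx5*. Of the 10 genes, 9 had an entry in the table analysed, which holds 20633 transcript entries with 19338 distinct gene symbols. No entry mapped to *Setdb1*, which encodes the methyltransferase that TRIM28 and ATF7IP work with, and no value is given for it. *Cbx5* had 2 entries, and the one with the higher value was kept.

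Nuclear RNA was sequenced from Rybpfl/fl;Yaf2-/- mouse embryonic stem cells grown in serum and leukaemia inhibitory factor. The *Rybp* gene carries loxP sites in this line and a tamoxifen-inducible Cre recombinase deletes it, while *Yaf2* had been deleted with CRISPR/Cas9 in a line grown from an isolated colony, so that control cells lack YAF2 as well. Cells were left untreated (UNT, 3 biological replicates) or received 800 nM 4-hydroxytamoxifen for 96 hr (OHT, 3 biological replicates). The measurement used is the authors' base mean, the size-normalised read pair count averaged over all 6 libraries of both groups. It comes with no spread between replicates and no depth per library, and a level in UNT cannot be set against a level in OHT. Values below therefore describe how much nuclear RNA of each gene was read over the experiment as a whole, and carry no test.

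Methylation of H3K9 marks silent chromatin. EHMT1 and EHMT2 (GLP and G9a) act as a pair that places mono- and dimethylation in euchromatin, SUV39H1 and SUV39H2 place trimethylation at pericentric repeats, and SETDB1 trimethylates endogenous retroviruses and some genes after KRAB zinc finger proteins have brought in TRIM28. The HP1 proteins bind methylated H3K9 through their chromodomain and join with further silencing factors through their chromoshadow domain. In embryonic stem cells this route silences retroviral elements and, beside Polycomb complexes and DNA methylation, takes part in keeping germline genes off.

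The genes with the highest base means were *Cbx5* and *Trim28*, and the sequences before their start sites are shown here because the 2 *Cbx5* entries begin at different sites of very different CpG content. Each stretch is the 250 bases that end at the base before the RefSeq start site (GRCm38.p6, which shares its coordinates with mm10), read 5′ to 3′ on the strand of the gene, with CpG dinucleotides in capitals. The distal *Cbx5* start, that of the kept entry, has its stretch at chr15:103239853-103240102 on the minus strand. The inner *Cbx5* start has its stretch at chr15:103215353-103215602 on the minus strand, and the *Trim28* stretch lies at chr7:13023902-13024151 on the plus strand.
Cbx5 distal start: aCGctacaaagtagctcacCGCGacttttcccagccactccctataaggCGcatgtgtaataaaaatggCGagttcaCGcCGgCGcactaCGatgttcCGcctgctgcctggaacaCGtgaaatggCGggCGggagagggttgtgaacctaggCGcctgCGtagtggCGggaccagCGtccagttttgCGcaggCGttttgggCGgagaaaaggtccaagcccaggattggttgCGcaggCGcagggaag
Cbx5 inner start: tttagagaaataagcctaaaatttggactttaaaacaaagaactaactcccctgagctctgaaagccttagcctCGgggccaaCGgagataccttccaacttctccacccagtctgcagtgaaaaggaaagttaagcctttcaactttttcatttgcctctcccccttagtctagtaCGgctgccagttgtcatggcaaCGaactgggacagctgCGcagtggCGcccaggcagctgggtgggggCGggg
Trim28: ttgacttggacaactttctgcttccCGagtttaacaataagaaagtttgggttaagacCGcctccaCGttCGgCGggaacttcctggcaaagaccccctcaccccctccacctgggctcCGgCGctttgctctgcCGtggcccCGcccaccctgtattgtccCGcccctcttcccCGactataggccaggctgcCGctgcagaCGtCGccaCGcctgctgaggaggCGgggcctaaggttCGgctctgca

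All 9 genes lay above the median entry. The median base mean of the 19198 entries above 0 was 306.7 normalized counts, with quartiles of 25.9 and 1260, and the 9 genes ranged from 1256 to 12976. The median of their percentiles was 92.4 (range 74.9 to 99.2). By comparison, the targeted gene *Rybp* had a base mean of 13983, and *Yaf2*, which all libraries lack by genotype, had a base mean of 3.24. The base mean of *Rybp* pools cells before and after its deletion and so does not check the OHT label.

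**Figure D1:**
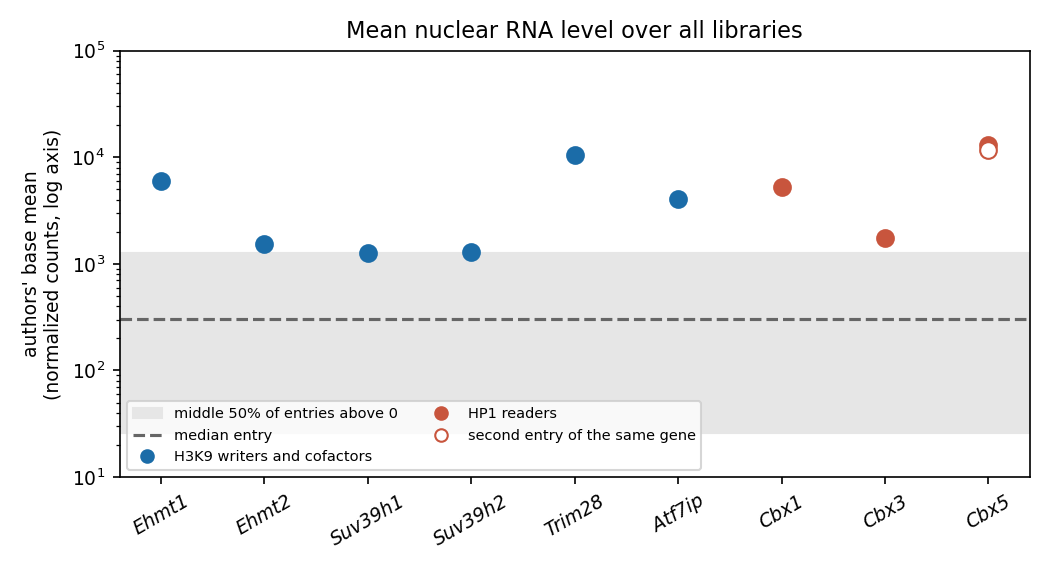
The authors' base mean (normalized counts, log axis) is plotted for each entry of the 9 genes, with H3K9 writers and cofactors in blue and HP1 readers in red. The grey band spans the quartiles of all entries above 0 (25.9 to 1260) and the dashed line is their median of 306.7, which every gene exceeds; the open circle is the second *Cbx5* entry at 11715.

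Among the HP1 genes, *Cbx5* (HP1α) had a base mean of 12976 normalized counts, *Cbx1* (HP1β) of 5210 and *Cbx3* (HP1γ) of 1754. Longer genes collect more reads, so base means are given as values and levels between genes are read after division by length. Per kb of gene span, introns included, *Cbx5* stood at 268.8 normalized counts, *Cbx1* at 267.4 and *Cbx3* at 133.1, against 14.05 for the median entry. The first 2 of these were level (a ratio of 1.00), and *Cbx5* exceeded *Cbx3* 2.02-fold. Per kb of exon the order was another: *Cbx1* stood at 4164, *Cbx5* at 1474 and *Cbx3* at 928.4, against 118.8 for the median entry. *Cbx3* was thus the lowest of the HP1 genes on both lengths. The kept *Cbx5* entry has 8.803 kb of exon and the *Cbx1* entry 1.251 kb, and these genes were level by span and 2.82 times apart by exon. With the shorter *Cbx5* entry, *Cbx5* stood above *Cbx1* on both lengths, at 729.9 per kb of span and 10222 per kb of exon, so no order is given for them.

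*Cbx3* has a limit of its own. Of its 1850 distinct stretches of 40 bases, the read length, 30.4% also occur in annotated transcripts of other genes, and 13 of these 16 genes are pseudogenes. For *Cbx1* and *Cbx5* the shares were 0.495% and 0.262%. Reads from shared stretches can be lost or placed elsewhere, and the part this plays in the lower *Cbx3* value was not tested. No 40-base stretch was shared between any of the 9 genes, so exonic reads of the HP1 paralogs could not be exchanged among them when they matched exactly.

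*Cbx5* was represented by a longer entry of 48.27 kb (chromosome 15, 103191544 to 103239816, minus strand) and a shorter one of 16.05 kb (103199255 to 103215305) lying wholly within it. The shorter entry starts 24.51 kb further into the gene and ends 7.711 kb earlier. It had a base mean of 11715 normalized counts, which is 90.3% of that of the longer entry over 33.3% of its span. The 32.22 kb outside the shorter entry correspond to a difference of 1261 normalized counts, or 39.1 per kb, against 729.9 per kb within it. Since the entries overlap, the same read pairs may have been counted in both. The table holds 827 such nested pairs with a longer base mean of at least 10, and among the 162 whose shorter entry spans a share of the longer within 10 percentage points of that of *Cbx5*, the shorter one held a median of 53.5% of the longer base mean (quartiles 38.2% and 79.2%). In 25 of the 162 pairs, that of *Cbx5* included, it held at least as large a percentage as in *Cbx5*.

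The stretch before the distal *Cbx5* start printed above holds 22 CpG dinucleotides and the one before the inner start 7. These counts fall at percentiles 77.7 and 32.4 of the 17653 start sites of genes with an entry above 0. The observed to expected CpG ratio was 1.02 at the distal start and 0.428 at the inner one. The inner start is therefore the CpG-poor one, and the base mean alone does not say from which start transcription came.

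Of the cofactors, *Trim28*, the corepressor of KRAB zinc finger proteins also known as KAP1, had a base mean of 10619 normalized counts. It is a short gene of 6.884 kb (chromosome 7, 13024152 to 13031035, plus strand), of which exons make up 47.1%. Per kb of span it stood at 1543 normalized counts, the highest of the 9 genes and at percentile 99.6 of all entries with a length. This was 5.74 times the value of the longer *Cbx5* entry, the next gene in order. Per kb of exon it stood at 3272, second to *Cbx1*. *Atf7ip*, whose product binds SETDB1 and keeps it in the nucleus, had a base mean of 4055 over 92.06 kb (chromosome 6, 136518802 to 136610862, plus strand). At 44.1 normalized counts per kb of span it was the lowest of the 9, with *Trim28* 35.0 times higher. Per kb of exon *Atf7ip* stood at 503.2 and sixth in order, with *Trim28* 6.50 times higher.

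**Figure D2:**
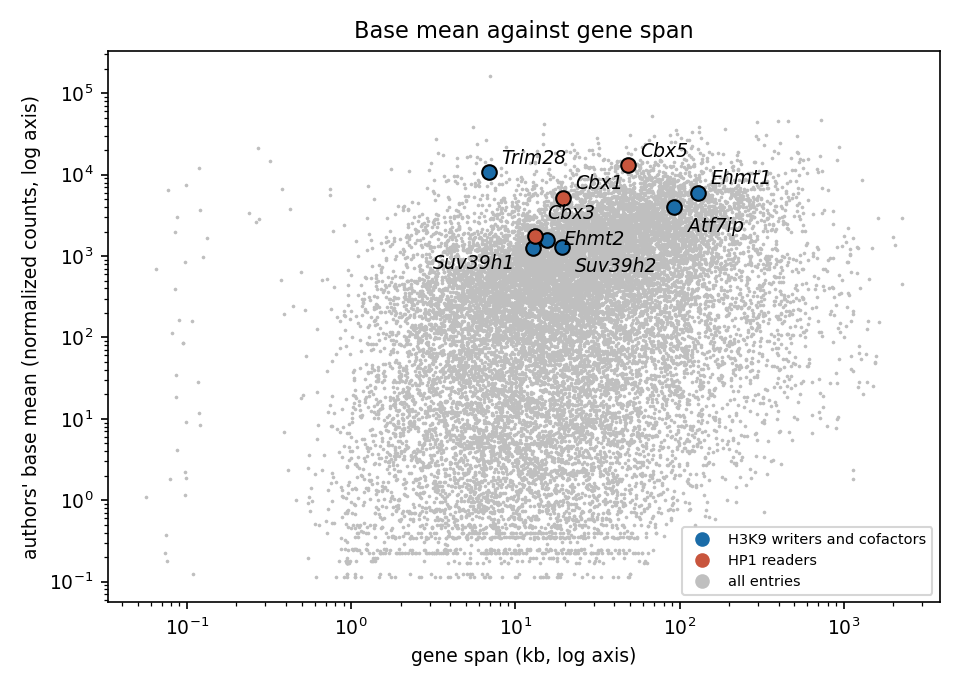
Each grey point is an entry above 0 with a known length, by gene span (kb, log axis) and the authors' base mean (normalized counts, log axis), and the 9 genes are marked. *Trim28* reaches a base mean of 10619 over 6.884 kb, whereas *Ehmt1* has 6000 over 129.7 kb.

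Within the G9a pair, *Ehmt1* had a base mean of 6000 normalized counts and *Ehmt2* of 1553. *Ehmt1* spans 129.7 kb (chromosome 2, 24789928 to 24919614, minus strand) and 4.59% of this is exon. *Ehmt2* spans 15.58 kb (chromosome 17, 34898469 to 34914051, plus strand) and 24.9% of this is exon. Per kb of span *Ehmt1* stood at 46.3 and *Ehmt2* at 99.6, a ratio of 0.464. Per kb of exon *Ehmt1* stood at 1008 and *Ehmt2* at 399.9, a ratio of 2.52. The direction between the partners therefore depends on the length used, and no order can be given for them.

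The SUV39H pair had base means of 1256 normalized counts for *Suv39h1* (chromosome X, 8061435 to 8074258, minus strand) and 1285 for *Suv39h2* (chromosome 2, 3455815 to 3475031, minus strand). Per kb of span *Suv39h1* stood at 98.0 and *Suv39h2* at 66.9, and per kb of exon at 452.3 and 296.9. The ratio of *Suv39h1* to *Suv39h2* was 1.47 by span and 1.52 by exon, so that *Suv39h1* was higher on both. Both genes overlap annotated genes on the opposite strand. *Gm14820* covers the whole 12824 bp of the *Suv39h1* span, and 23.8% of the 40-base stretches of *Suv39h1* occur in it on the other strand. *Suv39h2* shares 8316 bp with *Dclre1c*, a DNA repair gene with a base mean of 947.1, and 5934 bp with *Gm13184*. The libraries were made with a strand-specific kit, but whether strand was used in counting is not given in the sources used here, so the share of antisense reads in these values is unknown.

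From highest to lowest per kb of span, the order was *Trim28*, *Cbx5*, *Cbx1*, *Cbx3*, *Ehmt2*, *Suv39h1*, *Suv39h2*, *Ehmt1* and *Atf7ip*. Per kb of exon it was *Cbx1*, *Trim28*, *Cbx5*, *Ehmt1*, *Cbx3*, *Atf7ip*, *Suv39h1*, *Ehmt2* and *Suv39h2*. *Trim28*, *Cbx1* and *Cbx5* made up the first 3 on both scales. By span *Cbx5* came second with either of its entries. By exon its place rests on the longer entry: the shorter one, with 1.146 kb of exon, would come first. Ratios between neighbours by span were as small as 1.00 for *Cbx5* over *Cbx1*, 1.02 for *Ehmt2* over *Suv39h1* and 1.05 for *Ehmt1* over *Atf7ip*. With no value per library, none of these neighbours can be set apart by a spread. The authors added a second alignment to gain intronic reads and filtered genes on the mappability of the gene body, which bears on span as the length, but the sources used here do not say outright whether introns were counted, so both lengths are given. Over the 18871 entries above 0 with a length the log2 base mean was related about equally to the log2 of either length (Pearson r across genes 0.346 for span and 0.374 for exons).

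**Figure D3:**
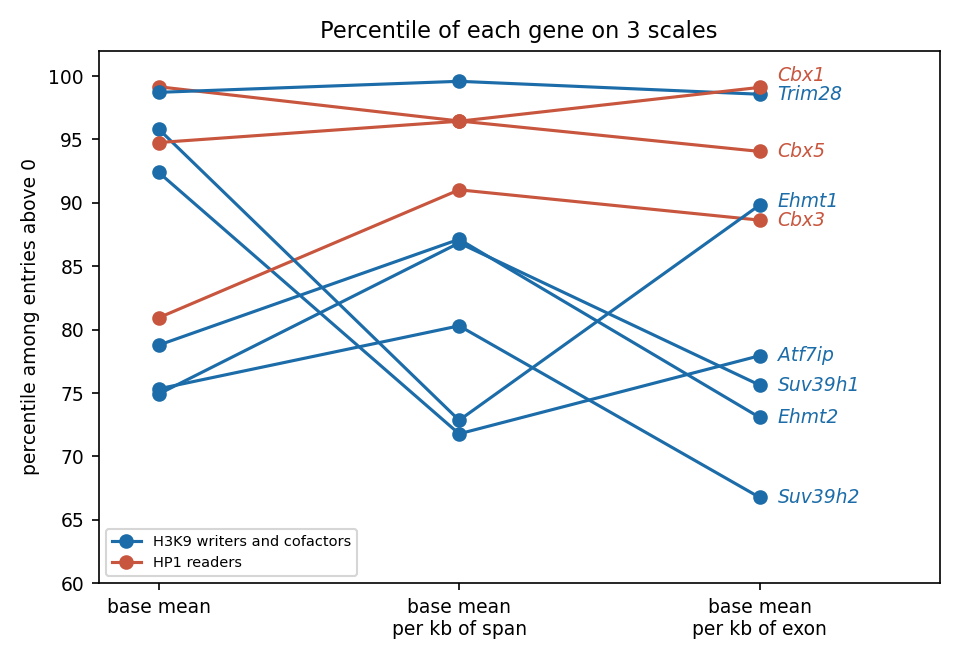
Each line is 1 of the 9 genes, and the vertical axis is its percentile among entries above 0, shown from 60 upwards, by base mean, by base mean per kb of span and by base mean per kb of exon. *Trim28*, *Cbx1* and *Cbx5* stay above percentile 94 on all scales, while *Ehmt1* moves from percentile 95.8 to 72.9 and back to 89.8.

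The remaining genes of the pathway were read from lists of 41 genes, of which 39 had an entry. No entry mapped to *Setdb2* or *Prdm16*. By base mean 37 of the 39 lay above the median entry, the others being *Mecom* and *Kdm4d*, and the median of their percentiles was 90.7, against 92.4 for the 9 genes above. Medians per length leave out *Mecom*, the lowest of the 39 by base mean, because its kept entry has no length here. Per kb of span, the median over the lists was percentile 82.2, against 87.1 for the 9 genes. By exon it was 89.5, against 88.6, so that the direction between them turned with the length. The values of the lists and of the 9 genes were not tested against each other.

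HP1 and H3K9me3 partners had a median percentile of 90.2 per kb of span and 91.4 per kb of exon, with all 13 genes above the median entry. The highest was *Lbr*, the lamin B receptor that binds HP1 at the nuclear envelope, with 476.6 normalized counts per kb of span, and the lowest was *Lrif1*, a ligand-dependent nuclear receptor interacting factor, with 23.8. The place of *Lrif1* rests on its kept entry: its other entry stood at 67.7, above *Kmt5b* of the same list at 43.7. The 4 listed KRAB zinc finger genes had a median percentile of 94.2 per kb of span and 88.2 per kb of exon. These were picked by name and do not describe the family as a whole. The listed genes ranged from *Zfp57*, which keeps imprinted regions methylated, at 491.9 normalized counts per kb of span, to *Zfp809*, which targets retroviral primer binding sites, at 52.1. The HUSH complex and MORC2 list had a median percentile of 86.7 per kb of span and 92.0 per kb of exon. In it the highest was *Tasor* at 188.8 normalized counts per kb of span and the lowest *Pphln1* at 28.1. Both encode subunits of the HUSH complex, which spreads H3K9 trimethylation with SETDB1.

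Partners of H3K9 writers had a median percentile of 70.9 per kb of span but 93.8 per kb of exon, so their place among the lists depends on the length. Among kept entries with a length, *Zfp644*, a zinc finger partner of the G9a complex, was highest at 98.2 normalized counts per kb of span and *Prdm2*, a PR domain gene, lowest at 34.6. *Mecom*, also of the PR domain family, had a base mean of 74.6 in its kept entry, which has no length here. Its other entry, with a base mean of 29.5, stood at 0.477 per kb of span, below *Prdm2*. Demethylases of H3K9, which remove the mark, ranged more widely. *Jmjd1c* stood at 157.8 normalized counts per kb of span and *Kdm4d* at 2.01, and 8 of the 11 genes lay above the median entry. The median percentile of the demethylases was 67.5 per kb of span and 73.8 per kb of exon. By span this compares with 72.9 for *Ehmt1* and 71.8 for *Atf7ip*, the lowest of the 9 genes by span.

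Other silencing systems are set beside these genes as a description, with no test. The Polycomb chromobox genes, which share the chromodomain but read H3K27 methylation, had 4 genes with an entry and none for *Cbx6*. *Cbx7* stood at 180.3 normalized counts per kb of span, at percentile 93.9. *Cbx8* stood at 0.982, at percentile 22.2, and the median of the list was percentile 48.0 (29.96 per kb of exon). The 3 HP1 genes lay between percentiles 91.0 and 96.5 on the same scale, on which *Cbx3* lay below *Cbx7*. *Cbx1* was 1.48 times *Cbx7* by span and 3.97 times by exon. The PRC2 core genes had a median percentile of 90.1, from *Suz12* at 320.7 normalized counts per kb of span to *Ezh1* at 49.3. By exon their median was percentile 97.1. DNA methyltransferase genes had a median percentile of 86.7, from *Dnmt1* at 134.9 to *Dnmt3a* at 19.2, and of 88.5 per kb of exon. Both ends are those of kept entries: the other *Dnmt3a* entry stood at 75.9 per kb of span, and another *Dnmt3l* entry at 193.0. The H3K9 writers and cofactors had a median percentile of 83.6 by span and a lower one, 76.8, by exon. Their ranges overlapped those of both lists on either length.

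**Figure D4:**
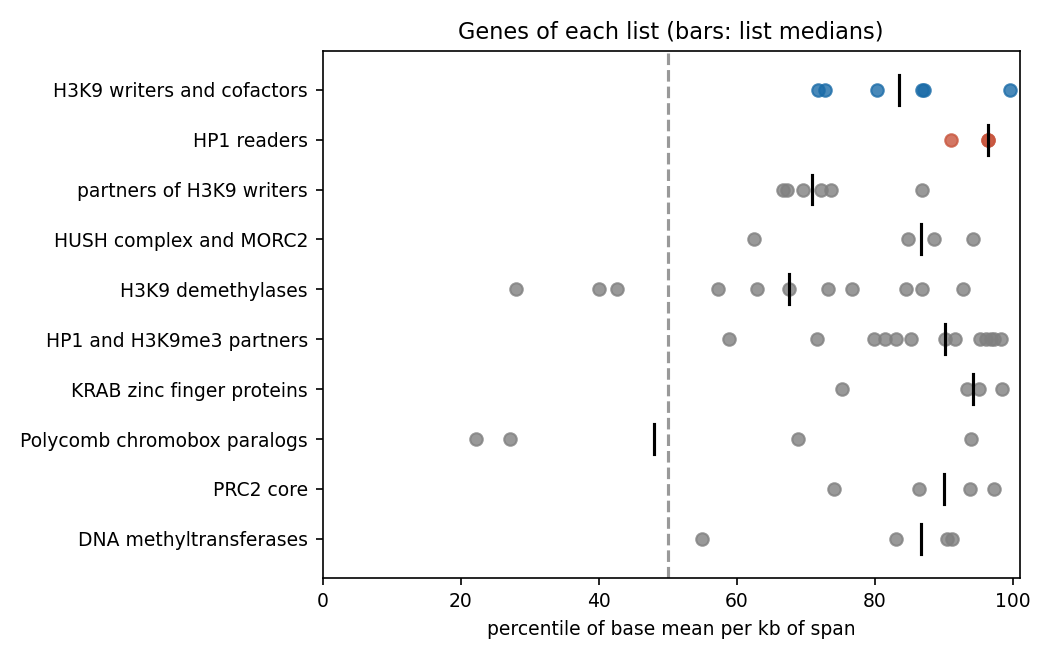
Each point is a gene, placed by the percentile of its base mean per kb of span among all entries with a length, with a bar at the median of each list and a dashed line at the median entry. The HP1 readers lie between percentiles 91.0 and 96.5, whereas the Polycomb chromobox genes spread from 22.2 to 93.9.

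The cell type was checked with marker genes. All 8 embryonic stem cell markers lay above the median entry, with percentiles of the base mean from 83.9 to 99.3. Divided by span, they ran from *Tdgf1* at 2181 normalized counts per kb to *Esrrb* at 66.1. Of 17 markers of fibroblasts, neural cells, primitive endoderm and mesoderm, 3 lay above the median entry by base mean. These were *Map2* at percentile 81.3, *Tubb3* at 62.0 and *Col1a1* at 52.9. Per kb of span 4 of the 17 lay above it, and per kb of exon 2 did. Among the 4 neural markers, 2 lay above it on each scale. Of the 17, *Tubb3*, a neuronal tubulin gene, was the highest per kb of span at 59.0 normalized counts, and *Mesp1* the lowest at 0.869, with a base mean of 1.345. Fewer cells of a type and less RNA per cell cannot be told apart in such bulk libraries, and the part that other cell types may have in the values above was not tested.

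The start nearest to the kept entry of each of the 9 genes had more CpG than the median start site. Upstream of the start nearest to each kept entry, counts ran from 16 for *Cbx1* to 29 for *Cbx3*, against a median of 13 and quartiles of 5 and 21 for the 17653 start sites. *Cbx1*, *Trim28*, *Ehmt2* and *Atf7ip* lay within these quartiles and the other genes above them. The remaining counts were 17 for *Trim28*, 18 for *Ehmt2*, 20 for *Atf7ip*, 22 for *Cbx5*, 25 for *Suv39h1*, 26 for *Ehmt1* and 27 for *Suv39h2*. Over all 13 RefSeq start sites of these genes, 11 exceeded the median. The exceptions were the inner *Cbx5* start and the second start of *Suv39h1*, which has 11.

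**Figure D5:**
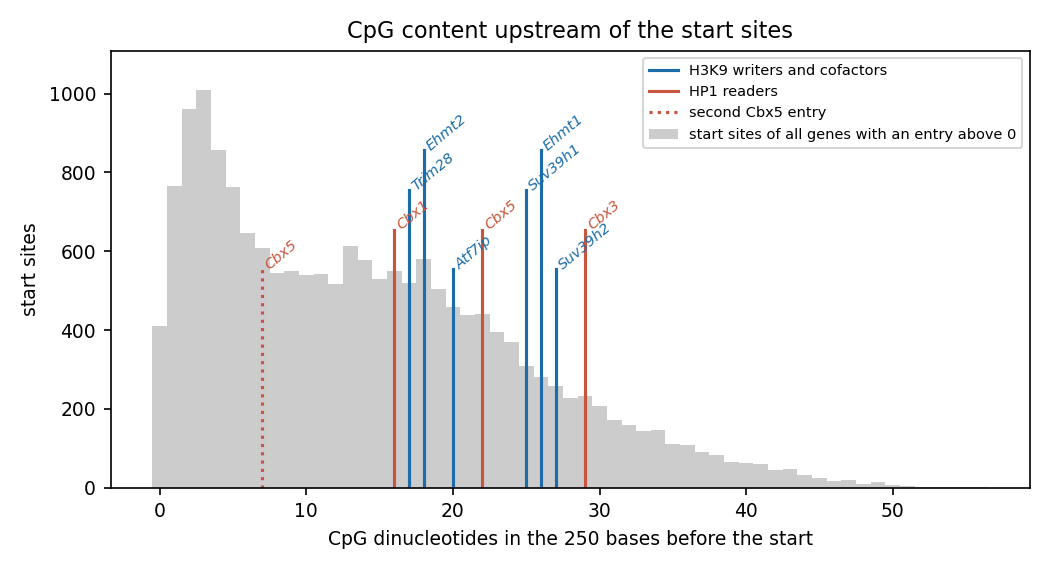
The grey bars count start sites by the number of CpG dinucleotides in the 250 bases before the start, and vertical lines mark the start nearest to each entry of the 9 genes, with heights chosen only to keep the names apart. The kept entries lie between 16 and 29, and the dotted line at 7 is the inner *Cbx5* start.

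Short motifs were searched on both strands of the same 250 bases, and overlaps between motifs were not removed. The E-box CACGTG was present at 3 of the 13 start sites, the distal one of *Cbx5* and both of *Ehmt2*, and in 7.57% of all start sites. The E2F-type motif TTCCCGCC was found before *Trim28* and *Suv39h2*, against 2.88% of all. In *Trim28* it is read on the opposite strand, in capitals in this second print of its stretch.
Trim28, E2F-type motif in capitals: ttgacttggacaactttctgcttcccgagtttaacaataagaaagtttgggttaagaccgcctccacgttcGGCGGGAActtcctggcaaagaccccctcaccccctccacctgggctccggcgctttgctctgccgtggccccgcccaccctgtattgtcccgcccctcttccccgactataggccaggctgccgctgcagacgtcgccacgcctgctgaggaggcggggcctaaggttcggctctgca
Neither the ETS-type motif CCGGAAG (10.3% of all start sites) nor the TATA box TATAAA (7.78% of all) was present at any of the 13. A match describes letters in the window and is not evidence of binding.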

How the data were processed

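The deposited table gives, for each RefSeq entry, a base mean, a signal that the authors made by dividing read pair counts by size factors and averaging over all 6 libraries. Per the paper's methods, the authors removed rRNA reads with bowtie2, aligned 40 bp read pairs to mm10 (STAR first, bowtie2 for reads left over), counted them with a custom script on a filtered refGene set and ran DESeq2. The remaining columns hold the authors' own comparison of OHT with UNT (fold change, its error, statistic and p-values) and were not used, so no test was made here. The count test planned for values per library was not run.

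Gene symbols came from RefSeq annotation of GRCm38.p6 for 20450 entries and, with GENCODE vM21, for 20560 in all. Spans and exon lengths came from the GENCODE transcript linked to each accession and were found for 20261 entries; the longest span was taken where several were linked. Percentiles are among entries above 0. The 10 genes and all lists were chosen with earlier results of these data known. From each list the genes highest and lowest per kb of span were named, and those without an entry; the nested *Cbx5* entries, start sites and shared stretches were examined after base means were seen. Alternatives were all entries, a base mean minimum of 10, 1 entry per gene, summed entries, exon length and a regression on span. The percentile step and the regression on span were tested on simulated data, and the other steps were not. Python 3.11.15, numpy 2.4.6 and pandas 2.3.3 were used. Depth per library is unknown, so counting errors are not given.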

Additional observations from a re-analysis of the deposited data

How the results depend on the processing

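No paired analysis was possible because only means over all libraries were used, and for the same reason other normalizations, count filters, tests between OHT and UNT and leaving out each replicate were not run. All 9 genes stayed above the median entry under each of the alternatives tried, on base means and per length. The median percentile of 92.4 by base mean became 92.9 over all entries with those at 0 included and 90.7 with a base mean of at least 10. Per kb of span, 87.1 became 88.6 with the length of exons, 84.3 with a base mean of at least 10 and 86.5 with the residual of base mean on span. The order was the least stable. With the length of exons, 0 of the 9 genes kept their position, and with no length 0 did. With both *Cbx5* entries added and divided by the span of the longer one, all 9 did. This outcome was fixed, as adding a smaller entry could not lift *Cbx5* past *Trim28*. Adding both *Cbx5* entries left the median percentile by base mean at 92.4, and the median percentile per length was not run with them. The former could not move, since only *Cbx5* has 2 entries and it already had the highest base mean. Keeping 1 entry per gene moved neither median percentile beyond a 95% binomial interval. This interval takes the percentile as a share of all entries. It does not measure a spread over the 9 genes or over libraries. In all, 12 of 19 alternatives stayed within tolerance, which for the median percentiles was this interval. For counts of genes above the median entry the tolerance was wider, and these counts make up most of the 12. The 12 also include the alternatives with *Cbx5* entries added, whose outcome was fixed, so the tally does not measure stability. Without values per library, neither the precision of a level nor its stability between replicates is known.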

Other observations

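Of the 9 genes, 4 begin less than 1000 bp from the start of an annotated gene on the opposite strand, as do 22.1% of the 17701 genes with a length and a base mean above 0. The start of *Cbx5* lies 616 bp from that of *Hnrnpa1*, an RNA-binding splicing factor gene with a base mean of 4508 normalized counts. The start of *Cbx3* lies 636 bp from that of *Hnrnpa2b1*, a member of the same family with a base mean of 21702. *Ehmt2* starts 204 bp from *C2*, a complement gene with a base mean of 195.2, and *Atf7ip* starts 229 bp from the long non-coding RNA *Gm44140*, to which no entry mapped. These genes were looked up after the base means of the 9 genes had been seen, and base means are not divided by length here.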
